A study of Mus musculus with 30 samples.

Results

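The metallothionein and zinc response genes of C2C12 myotubes are 5 of the 55487 genes in a table of raw RNA-seq counts, chosen by name: Mt1 and Mt2, the metallothioneins, Mtf1, the metal-sensing transcription factor, Slc30a1, a zinc exporter, and Slc39a10, a zinc importer. The 30 libraries fall into 5 groups of 6. C2C12 is an immortalized mouse myoblast line, here labelled wild type, which fuses into myotubes when serum is lowered. Every culture was first differentiated for 4 days in low glucose DMEM with 2% horse serum and then kept for 4 further days in its own condition, 8 days in all: the same 2% horse serum (2% HS), serum deprivation without any serum (SD), SD with 100 nM metformin (MET), SD with 500 nM leucine (LEU), or SD with both at those doses (MET+LEU). Thus the MET, LEU and MET+LEU groups were all serum deprived, and SD is their control. All values come from 1 cell line, and nothing in the labels says whether the 6 libraries of a group came from separate cultures, so the p-values measure the spread between these libraries, which may be technical.

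Metallothioneins are small cysteine-rich proteins that bind zinc and copper, buffer free zinc in the cytosol and react with oxidants. When free zinc rises, it binds the zinc fingers of MTF-1, the product of Mtf1, which then binds metal response elements in the promoters of Mt1, Mt2 and Slc30a1 and raises their transcription. ZnT1, the product of Slc30a1, carries zinc out of the cell across the plasma membrane, whereas ZIP10, the product of Slc39a10, carries zinc in, and MTF-1 is known to repress Slc39a10. The mRNA of Mt1 and Mt2 is therefore widely read as a gauge of zinc available to MTF-1, although glucocorticoids and oxidants also raise it. Metallothionein mRNA is known to rise in wasting muscle.

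The promoters of Mt1, Mt2 and Slc30a1 are shown because these are the members that MTF-1 raises through metal response elements. Each sequence is the 250 bases before the start of the gene in RefSeq (build GRCm38.p6), on the gene's own strand, which is the plus strand for all 3 genes. Capitals mark the core of a metal response element, TGCGCNC or TGCACNC, both searched on both strands. Mt1 lies at chr8:94178839-94179088, Mt2 at chr8:94172368-94172617 and Slc30a1 at chr1:191906531-191906780.
Mt1: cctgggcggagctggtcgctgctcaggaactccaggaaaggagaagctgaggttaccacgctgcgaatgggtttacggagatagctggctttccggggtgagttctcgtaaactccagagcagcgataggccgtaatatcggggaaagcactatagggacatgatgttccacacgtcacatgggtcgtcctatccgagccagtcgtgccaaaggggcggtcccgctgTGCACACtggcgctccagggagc
Mt2: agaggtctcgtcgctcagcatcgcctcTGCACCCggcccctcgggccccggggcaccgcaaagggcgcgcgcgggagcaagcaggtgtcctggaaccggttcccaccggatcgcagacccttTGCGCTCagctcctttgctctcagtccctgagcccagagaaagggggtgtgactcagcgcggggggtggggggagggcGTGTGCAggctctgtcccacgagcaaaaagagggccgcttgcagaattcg
Slc30a1: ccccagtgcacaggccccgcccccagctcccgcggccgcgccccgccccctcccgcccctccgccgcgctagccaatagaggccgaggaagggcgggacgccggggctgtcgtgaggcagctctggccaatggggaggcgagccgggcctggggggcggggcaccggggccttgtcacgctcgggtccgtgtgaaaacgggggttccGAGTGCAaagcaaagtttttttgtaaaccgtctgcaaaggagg

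The Mt1 window held 1 core (TGCACAC, starting 23 bases before the RefSeq start). The Mt2 window held 3, which were TGCACCC starting 223 bases and TGCGCTC starting 128 bases before the start, both on the gene's strand, and TGCACAC on the other strand, 44 to 50 bases before it. Slc30a1 held 1, TGCACTC on the other strand, 37 to 43 bases before its start. No core was found in the 250 bases before Mtf1 or in either of the 2 windows listed for Slc39a10. Of all 32851 promoters in the table, 21.41% held at least 1 core of either form and 5.175% at least 2, so a single core is common. With the 50 bases after the start included, the count was 3 for Mt1, 4 for Mt2 and 2 for Slc30a1, and 7.114% of all promoters held at least 2. The core of the antioxidant response element, TGACNNNGC, was found once each in Mt2 and Slc30a1 on either strand and in 10.16% of all promoters. TATAAA, searched on the gene's strand, was in none of the windows of the 5 members and in 7.592% of all. These are matches of letters in 1 window per listed start: GENCODE M21 gives coding transcripts of Mt1 that start 122 and 152 bases, and coding transcripts of Mt2 that start 46 and 242 bases, downstream of the RefSeq start, so the bases just before those starts are not in the 250-base windows, although the 300-base window of Mt2 includes those before its start at 46. It also gives coding starts at -445 and 129 bases from the RefSeq start of Mtf1 and at 475 bases from that of Slc30a1. The bases just before these were not searched either. Of the Slc39a10 windows, chr1:46925777-46926026 lies outside the GENCODE span of that gene and chr1:46853619-46853868 lies inside it. On the minus strand that span starts at position 46892852. Neither window covers the bases just before that position, so those were not searched.

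Mt1 (ENSMUSG00000031765, chr8:94179082-94180327, plus strand) and Mt2 (ENSMUSG00000031762, chr8:94172664-94173568, plus strand) are neighbours on chromosome 8, with 5513 bases between them. Mtf1 (ENSMUSG00000028890) lies at chr4:124802104-124849800 on the plus strand. Slc30a1 (ENSMUSG00000037434) lies at chr1:191906767-191913247 on the plus strand, and Slc39a10 (ENSMUSG00000025986) at chr1:46807544-46892852 on the minus strand. The values are gene-level counts, so they cover the exons of each gene together and not single exons or UTRs.

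The libraries held 12784960 to 19604103 counts, and 15907 genes, with all 5 members among them, passed the filter on low counts. MET+LEU replicate 6 stood apart: 5.85% of its counts were nuclear rRNA and 7.64% mitochondrial rRNA, against at most 1.96% and 0.760% in the other 29 libraries. The MET+LEU values of Mt1 and Mt2, and the counts of genes that it changed, are also given without it. The 12 myotube markers all passed the filter, and the sum of their CPM spanned 42262 to 45094 in 2% HS. It spanned 34800 to 37311 without serum (SD), 31403 to 35250 with MET, 38601 to 40315 with LEU and 34749 to 43643 with MET+LEU. Ttn, with a mean of 25697 CPM over all libraries, made up most of this sum, and the markers did not all move alike. At an adjusted p under 0.05, Des rose and Ckm, Ttn, Myh1 and Mymx fell in SD vs. 2% HS. In MET+LEU vs. SD, Mb, Myh3, Myh8, Myh1 and Tnnt3 rose and Mymx fell. The summed CPM of the 6 markers of proliferating or unfused myoblasts was 356 to 383 in 2% HS, 316 to 357 in SD, 274 to 300 in MET+LEU, 291 to 358 in MET and 292 to 330 in LEU. In SD vs. 2% HS the lower sum followed Pax7, with means of 190 and 147 CPM in 2% HS and SD. It was the only 1 of the 6 past the threshold there, and 4 had a log2 fold change above 0. In MET+LEU vs. SD, Cdk1, Top2a, Mki67 and Ccnb1 were lower past the threshold and Pax7 was not. The summed CPM of 3 fibroblast markers (Pdgfra, Col1a1, Dpt) was 530 to 628 in 2% HS, 757 to 917 in SD, 634 to 718 in MET+LEU, 764 to 891 in MET and 670 to 795 in LEU. Most of it was Col1a1, with means of 564 CPM in 2% HS, 771 in SD and 605 in MET+LEU. In the same order, the means were 5.73, 47.8 and 49.1 CPM for Dpt and 9.43, 16.4 and 17.5 CPM for Pdgfra. None of the 3 macrophage or 2 endothelial markers passed the filter, their summed CPM reached at most 0.845 and 0.770, and Adgre1 was at 0 in every library. In a bulk sample, fewer cells of a type and less RNA per cell cannot be told apart. The part of these shifts in the results below was not tested.

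Both metallothioneins were lower in SD than in 2% HS. The level is given as CPM, the counts of a gene scaled to the depth of its library with TMM factors. Mt1 measured 185 CPM in the lowest, 214 in the median and 219 in the highest 2% HS library, and 112, 129 and 144 CPM in SD. Every SD library lay below every 2% HS library. Mt1 fell by 0.69 on the log2 scale in SD vs. 2% HS (SE 0.09, 95% interval -0.88 to -0.51, adjusted p = 8.9e-07), from 207.5 ± 14.2 to 128 ± 14.1 CPM (mean ± SD, n = 6), which is a fitted change of -38.2%.

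Mt2 measured 141 CPM in the lowest, 166 in the median and 183 in the highest 2% HS library, and 88.7, 97.8 and 109 CPM in SD. The groups did not overlap here either. Mt2 fell by 0.76 (SE 0.08, 95% interval -0.93 to -0.59, adjusted p = 2.4e-08), from 166 ± 14.2 to 97.9 ± 8.99 CPM, a fitted change of -41.1%. Among all genes tested in SD vs. 2% HS, 27.8% passed the threshold of an adjusted p under 0.05, 13.9% in each direction, and in 7.42% every SD library lay below every 2% HS library. In this comparison 3 of the 5 members passed, 2 of them lower and 1 higher.

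**Figure D1:**
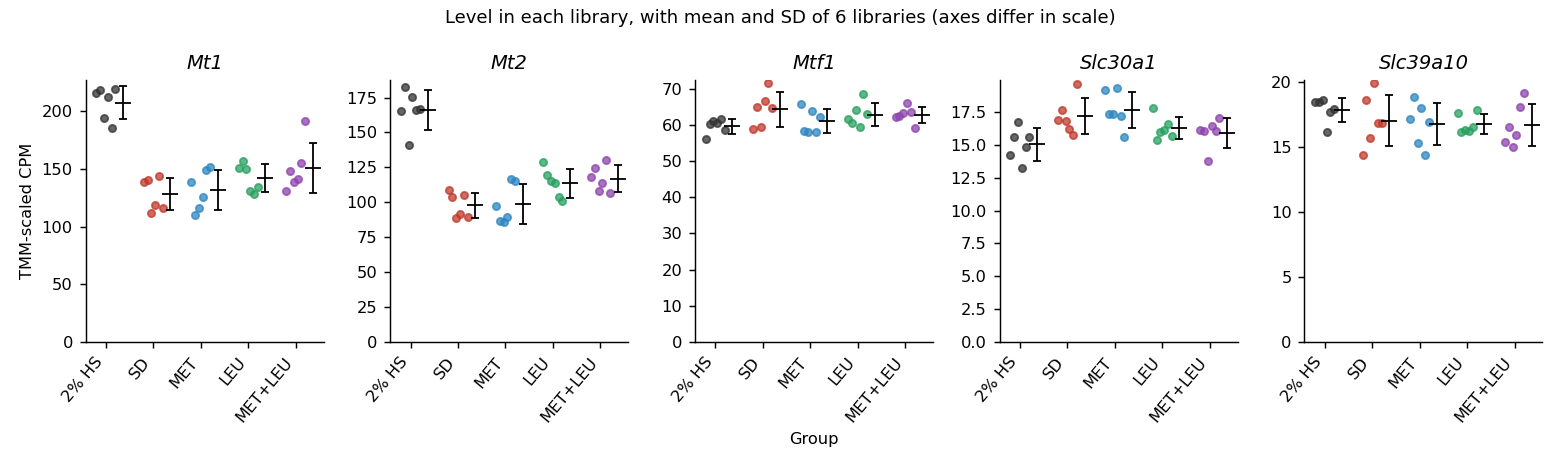
Level of each of the 5 genes in every library (TMM-scaled CPM, linear axes from 0 that differ in scale), with 6 points per group and the mean ± SD to their right. The 2% HS libraries sit above every SD, MET and LEU library for Mt1 and Mt2, whereas the groups overlap for Mtf1, Slc30a1 and Slc39a10.

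The drop was present in each serum-deprived group. Mt1 was 132 ± 17.4 CPM in MET (110 to 152), 142 ± 12.2 CPM in LEU (128 to 157) and 151 ± 21.5 CPM in MET+LEU (131 to 191). MET and LEU libraries all lay below the lowest 2% HS library, and in MET+LEU the exception was replicate 6, at 191 CPM. Mt1 in MET+LEU vs. 2% HS fell by 0.46 (SE 0.09, adjusted p = 1.6e-04), and by 0.55 without MET+LEU replicate 6 (adjusted p = 7.5e-06). Its log2 fold change was -0.65 in MET vs. 2% HS (adjusted p = 1.8e-06) and -0.55 in LEU vs. 2% HS (adjusted p = 2.8e-05).

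Mt2 was 98.6 ± 14.2 CPM in MET (85.7 to 117), 114 ± 10.2 CPM in LEU (101 to 129) and 117 ± 9.44 CPM in MET+LEU (107 to 131). No library of these 3 groups reached the lowest 2% HS library. Mt2 in MET+LEU vs. 2% HS fell by 0.51 (SE 0.08, adjusted p = 1.2e-05), and by 0.49 without MET+LEU replicate 6. The log2 fold change was -0.75 in MET vs. 2% HS (adjusted p = 2.4e-08) and -0.55 in LEU vs. 2% HS (adjusted p = 5.6e-06). The share of all genes past the threshold was 42.3% (20.3% lower) in MET+LEU, 35% in MET and 29.7% in LEU vs. 2% HS, and the share with every library lower was 9.51%, 10.5% and 9.53% in that order. These comparisons share the 2% HS libraries.

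The treated groups were next compared with SD, to see whether either compound or both moved metallothionein mRNA. With MET, Mt1 and Mt2 stayed close to SD, with log2 fold changes of 0.04 (95% interval -0.15 to 0.23, adjusted p = 0.931) and 0.01 (95% interval -0.16 to 0.18, adjusted p = 0.985). With LEU, the log2 fold change was 0.15 for Mt1 (95% interval -0.04 to 0.33, adjusted p = 0.652) and 0.21 for Mt2 (95% interval 0.04 to 0.38, adjusted p = 0.336). Each LEU library lay above the SD mean for Mt2, but the groups overlapped. By edgeR, 0 of the 5 members passed in MET vs. SD, where 0.157% of all genes did, and 0 of 5 in LEU vs. SD, where 0.553% did. With p under 0.05 before adjustment there were 0 and 1, and DESeq2 and limma-voom also gave 0 in both.

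With the combination, Mt2 was upregulated in MET+LEU vs. SD by 0.26 (SE 0.08, 95% interval 0.09 to 0.43, adjusted p = 0.0307), a fitted change of 19.4%. All 6 MET+LEU libraries lay above the SD mean, although the lowest MET+LEU library (107 CPM) lay below the highest SD library (109 CPM). The log2 fold change of Mt1 was 0.23 (SE 0.09, 95% interval 0.04 to 0.42, adjusted p = 0.0776). Mt2 was thus the 1 member of 5 past the threshold in this comparison, where 18.4% of all genes passed, 10.6% higher and 7.8% lower.

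The Mt2 call was narrow. Without MET+LEU replicate 6 its log2 fold change was 0.28 (adjusted p = 0.0362), but the adjusted p rose to 0.0841 without SD replicate 3, 0.0667 without SD replicate 4, 0.0756 without SD replicate 6, 0.0569 without MET+LEU replicate 1, 0.0684 without MET+LEU replicate 2 and 0.0856 without MET+LEU replicate 5. The fold change of Mt1 was 0.15 without MET+LEU replicate 6 (adjusted p = 0.269), and the mean of the other 5 libraries was 143 ± 9.30 CPM.

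No other pair of serum-deprived groups passed by edgeR for Mt1 or Mt2. Mt2 differed by 0.25 in MET+LEU vs. MET (adjusted p = 0.0616) and by 0.04 in MET+LEU vs. LEU (adjusted p = 0.824), and Mt1 by 0.19 (adjusted p = 0.209) and 0.09 (adjusted p = 0.641). Without MET+LEU replicate 6, the differences of Mt1 were 0.11 (adjusted p = 0.565) and -0.00019 (adjusted p = 0.9997), and those of Mt2 were 0.26 (adjusted p = 0.0844) and 0.06 (adjusted p = 0.795). By edgeR 0 of 5 members passed in MET+LEU vs. MET, with 3 at an unadjusted p under 0.05 and 1 each by DESeq2 and limma-voom, where 8.69% of all genes passed. In order of mean level, Mt1 and Mt2 both ran 2% HS, MET+LEU, LEU, MET, SD, although without MET+LEU replicate 6 the Mt1 means of MET+LEU and LEU were 143 and 142 CPM. Of neighbours in that order, only 2% HS and MET+LEU differed past the threshold; the share of all genes past it was 6.28% in MET+LEU vs. LEU and 0.0754% in LEU vs. MET. The interaction, which asks whether the combination differed from the sum of both single treatments, was 0.05 for Mt1 (95% interval -0.22 to 0.31, adjusted p = 0.953) and 0.03 for Mt2 (95% interval -0.21 to 0.27, adjusted p = 0.964). Without MET+LEU replicate 6 it was -0.04 for Mt1 (adjusted p = 0.970) and 0.05 for Mt2 (adjusted p = 0.970). By edgeR, DESeq2 and limma-voom it passed in 0 of 5 members, with 0 at an unadjusted p under 0.05, where 0.0503% of all genes passed by edgeR.

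**Figure D2:**
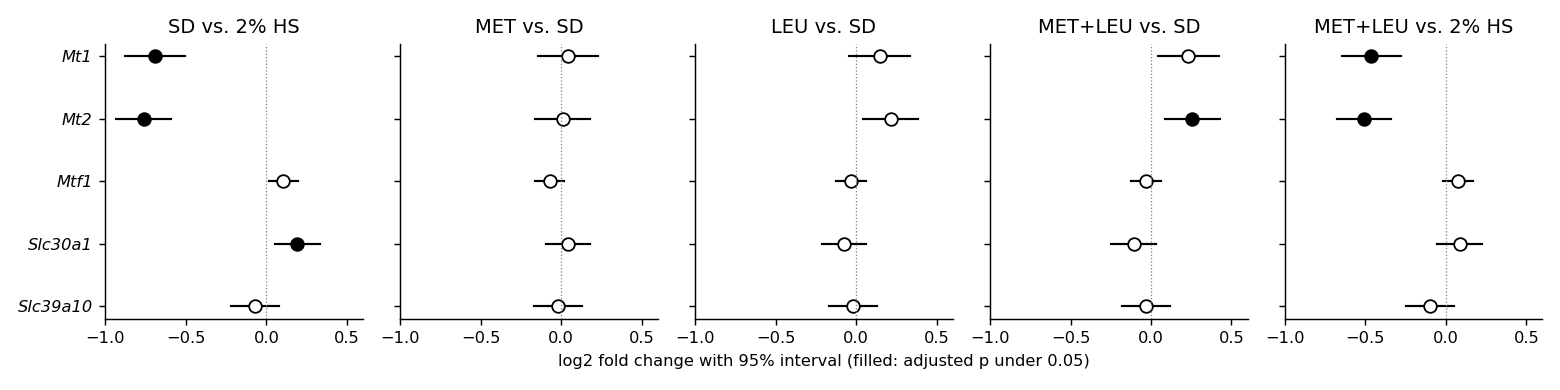
Fitted log2 fold change (points) and 95% interval (lines) of the 5 genes in 5 comparisons, with filled points where the adjusted p was under 0.05. Mt1 and Mt2 lie at -0.69 and -0.76 in the first panel and at -0.46 and -0.51 in the last, while the other 3 genes stay within 0.20 of 0 in each panel.

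The 2 metallothioneins varied together. Across the 30 libraries, Pearson's r of their log2 CPM was 0.910, and 0.615 after the group means were removed. This is a description, since the points share libraries and group differences. The ratio of Mt1 to Mt2 counts was 1.12 to 1.38 for 2% HS, 1.26 to 1.37 for SD, 1.15 to 1.33 for LEU and 1.27 to 1.43 for MET. Among MET+LEU libraries it ran from 1.10 up to 1.79, the highest value, in replicate 6. Per kilobase of the longest coding transcript, the mean level over all libraries was 232 CPM per kilobase for Mt2, 140 for Mt1, 8.14 for Mtf1, 3.13 for Slc30a1 and 3.10 for Slc39a10. With the shortest coding transcript in the annotation it was 306 for Mt2 and 277 for Mt1. Mt2 was thus the higher of the pair with the longest or the shortest transcript of both. Mt1 with its shortest (277) exceeded Mt2 with its longest (232), so the order depends on the lengths taken.

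**Figure D3:**
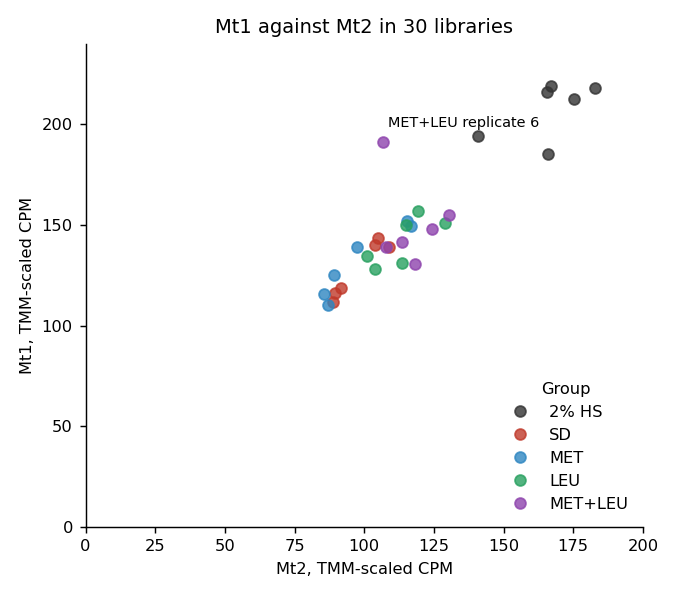
Mt1 against Mt2 in each of 30 libraries (TMM-scaled CPM on linear axes), coloured by group. The 2% HS libraries lie at the upper right (Mt2 from 141 and Mt1 from 185 CPM), and MET+LEU replicate 6 lies above the others of its Mt2 level, with 191 CPM of Mt1.

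The other genes of the cluster were near or below detection. Mt3, the metallothionein best known from brain (chr8:94152607-94154146), had 1 to 17 counts per library. Its log2 fold change was -0.77 in SD vs. 2% HS (adjusted p = 0.119), and it passed the threshold in MET vs. 2% HS at -1.32, where the libraries held 1 to 8 counts in MET and 6 to 17 in 2% HS. Mt4, known from stratified squamous epithelium, had 1 count in 1 library and 0 in the other 29. A count of 0 allows up to 3 counts, which is 0.152 to 0.243 CPM in these libraries.

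Mtf1 passed the threshold in none of the 11 comparisons. It measured 55.9 CPM in the lowest, 60.3 in the median and 61.6 in the highest 2% HS library, and 58.8, 64.7 and 71.6 CPM in SD. The groups overlapped, and the means were 59.6 ± 2.07 CPM for 2% HS, 64.3 ± 4.77 for SD, 62.7 ± 2.21 for MET+LEU, 62.8 ± 3.26 for LEU and 61.0 ± 3.35 for MET. The log2 fold change in SD vs. 2% HS was 0.11 (SE 0.05, 95% interval 0.01 to 0.20, adjusted p = 0.0771). It passed with limma-voom (adjusted p = 0.0418) and without SD replicate 1 (adjusted p = 0.0325) or SD replicate 3 (adjusted p = 0.0444). MET+LEU left it at -0.03 from SD (95% interval -0.12 to 0.06, adjusted p = 0.685). These are mRNA levels, and the activity of MTF-1, which zinc sets on the protein, was not measured.

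Slc30a1 moved the opposite way to Mt1 and Mt2 in SD vs. 2% HS. It measured 13.2 CPM in the lowest, 15.2 in the median and 16.8 in the highest 2% HS library, and 15.8, 16.8 and 19.6 CPM in SD. The SD libraries all lay above the 2% HS mean, but the groups overlapped. Slc30a1 was upregulated by 0.19 (SE 0.07, 95% interval 0.05 to 0.33, adjusted p = 0.0323), from 15.04 ± 1.24 to 17.2 ± 1.37 CPM.

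This call was lost without 2% HS replicate 1 (adjusted p = 0.0716), 2% HS replicate 4 (adjusted p = 0.119), 2% HS replicate 5 (adjusted p = 0.0506), SD replicate 2 (adjusted p = 0.0559) or SD replicate 6 (adjusted p = 0.119). In MET vs. 2% HS the gene was higher by 0.24 (SE 0.07, adjusted p = 0.00612), with all 6 MET libraries (15.6 to 19.3 CPM, mean 17.7 ± 1.38) above the 2% HS mean. The fold change was 0.12 in LEU vs. 2% HS (adjusted p = 0.219) and 0.08 in MET+LEU vs. 2% HS (adjusted p = 0.350), with means of 16.3 ± 0.854 and 15.9 ± 1.12 CPM. The fold change in MET+LEU vs. SD was -0.11 (95% interval -0.25 to 0.03, adjusted p = 0.297), with all 6 MET+LEU libraries below the SD mean. From the highest mean to the lowest, Slc30a1 ran MET, SD, LEU, MET+LEU, 2% HS, and no neighbours in that order differed past the threshold.

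Slc39a10, like Mtf1, passed in none of the comparisons. The 2% HS libraries ran from 16.1 to 18.6 CPM (mean 17.9 ± 0.925) and the SD libraries from 14.4 to 19.9 CPM (mean 17.05 ± 1.98). The means with treatment were 16.7 ± 1.63 CPM for MET+LEU, 16.8 ± 0.746 for LEU and 16.8 ± 1.64 for MET. The log2 fold change was -0.07 in SD vs. 2% HS (95% interval -0.22 to 0.08, adjusted p = 0.530). Its change with MET+LEU from SD was -0.03 (95% interval -0.18 to 0.12, adjusted p = 0.815).

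Exons of other genes overlap 3 members on the opposite strand. The antisense gene Gm45774 shares 432 exon bases with Mt2 and had 0 to 11 counts per library, 1700034H15Rik shares 468 with Slc30a1 and had 0 to 12, and 1110065P20Rik shares 721 with Mtf1 and had 69 to 222. The libraries were made with a stranded kit, but whether the counting used strand is not given in the sources used here, so reads from the shared exons may be uncertain. Mt1 and Mt2 are close paralogs, and how shared reads were counted is not given either.

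Other zinc transporters were taken as 2 lists beside the members. SLC30 transporters carry zinc out of the cytosol, either across the plasma membrane or into vesicles and organelles. Of 9 listed, 5 were tested, and in SD vs. 2% HS 0 rose and 1 fell (without SD replicate 2, Slc30a6 also passed, for a count of 2). Of all genes tested, 13.9% passed in each direction there. Slc30a9, a transporter linked to mitochondrial zinc, fell by 0.22 (SE 0.04, adjusted p = 1.8e-05), from 145 ± 3.17 to 125 ± 8.16 CPM, with no overlap between the groups. The median log2 fold change of the 5 was 0.06, beside 0.003 for all genes tested. Of the same 5, 0 passed in MET+LEU vs. SD by edgeR, DESeq2 or limma-voom, and 0 at an unadjusted p under 0.05. By edgeR 18.4% of all genes passed in that comparison.

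SLC39 transporters carry zinc into the cytosol. Of 13 listed beside Slc39a10, 10 were tested, and in SD vs. 2% HS 6 rose and 0 fell, with a median log2 fold change of 0.16. Of all genes tested, 13.9% rose and 13.9% fell past the threshold. Slc39a7, which releases zinc from the endoplasmic reticulum, rose by 0.46 (SE 0.10, adjusted p = 7.4e-04), from 21.4 ± 2.699 to 29.5 ± 3.70 CPM. Slc39a13, a transporter of the secretory pathway, rose by 0.20 (adjusted p = 9.9e-05) and Slc39a14, a plasma membrane importer of zinc, iron and manganese, by 0.16 (adjusted p = 0.00539). Slc39a9 rose by 0.16, Slc39a6 by 0.17 and Slc39a1 by 0.15 (adjusted p = 0.00323, 0.0245 and 0.0147). For Slc39a7, Slc39a9, Slc39a13 and Slc39a14 every SD library lay above every 2% HS library, as in 6.17% of all genes tested.

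Of the 10 importers, 0 rose and 4 fell in MET+LEU vs. SD, with a median of -0.09 beside -0.005 for all genes. Past the threshold, 10.6% of all genes rose and 7.8% fell. Slc39a1, a plasma membrane importer, fell by 0.20 (SE 0.05, adjusted p = 0.00243), from 145 ± 12.02 to 126 ± 11.01 CPM. Slc39a14 fell by 0.16 (adjusted p = 0.0119), Slc39a3 by 0.44 (adjusted p = 0.0351) and Slc39a2, which had 4 to 21 counts in these libraries, by 0.89 (adjusted p = 0.0382). The count was 2 without MET+LEU replicate 6 or without SD replicate 3, with Slc39a1 and Slc39a14 left in both cases, 1 with limma-voom, and 0 when the fit held the SD and MET+LEU libraries alone.

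**Figure D4:**
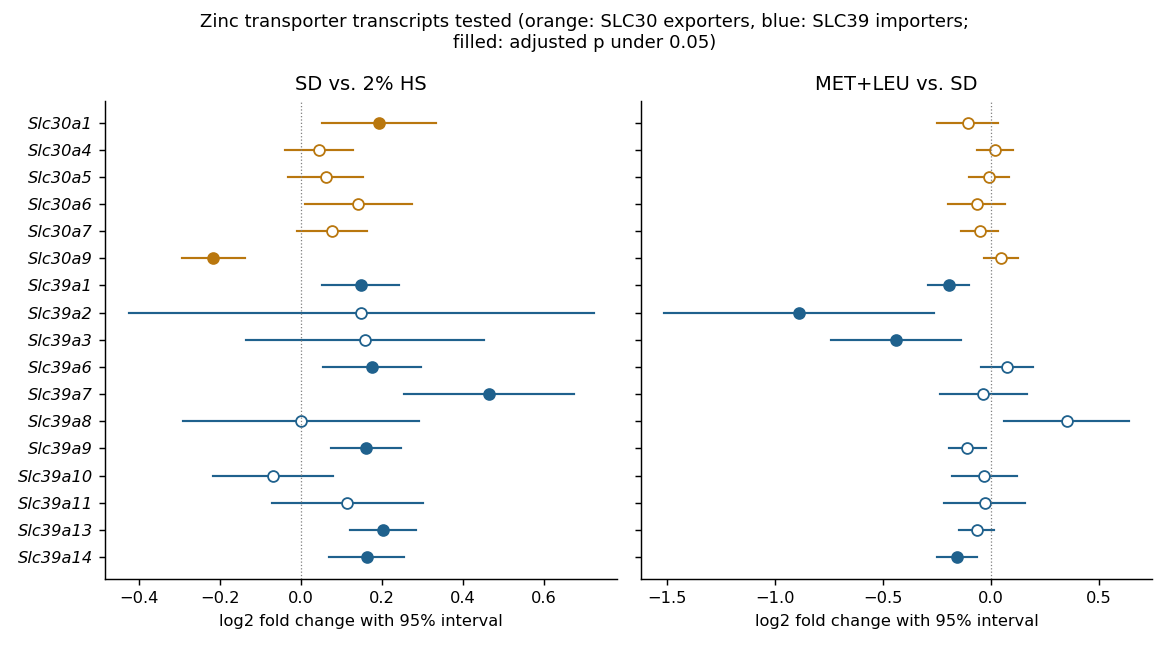
Log2 fold change and 95% interval of the SLC30 (orange) and SLC39 (blue) transcripts that were tested, Slc30a1 and Slc39a10 included, in SD vs. 2% HS (left) and MET+LEU vs. SD (right), with axes that differ in scale. Filled points had an adjusted p under 0.05: 6 importers at 0.15 to 0.46 on the left besides Slc30a1 (0.19) and Slc30a9 (-0.22), and 4 importers at -0.16 to -0.89 on the right.

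Of 11 copper handling genes, which serve the other metal that metallothioneins bind, 10 were tested. In SD vs. 2% HS 2 rose (Sod1, the cytosolic superoxide dismutase, by 0.20, and Sco1) and 2 fell (Atp7a, a copper exporter, by 0.48, adjusted p = 1.3e-11, and Cox17, a copper chaperone for cytochrome oxidase, by 0.29). With MET+LEU against SD 3 rose (Sod1 by 0.33, Cox17 by 0.39 and Commd1) and 2 fell (Atox1, a copper chaperone, by 0.46, and Slc31a1). That count of 5 was 3 with limma-voom, where neither fall passed, 3 when the fit held the SD and MET+LEU libraries alone, where Commd1 and Slc31a1 did not pass, and 4 without MET+LEU replicate 6. The median log2 fold changes of these 2 comparisons were 0.16 and -0.04. In MET+LEU vs. MET and in MET+LEU vs. LEU, 3 of the 10 passed, where 8.69% and 6.28% of all genes did. Without MET+LEU replicate 6, 0 of the 10 passed in either. Among MET+LEU libraries Cox17 ran from 21.7 to 35.9 CPM (median 23.7) and Atox1 from 7.45 to 11.7 CPM (median 10.3). Fold changes of single copper genes without MET+LEU replicate 6 are not given here.

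Of 12 glutathione and thioredoxin genes, which include targets of the oxidant response, all were tested, and in SD vs. 2% HS 5 rose and 2 fell (median 0.07). Those that rose were Gclc, a subunit of the enzyme that limits glutathione synthesis, by 0.19, Srxn1 by 0.26, Gss, Txn1 and Prdx1. Hmox1, heme oxygenase, fell by 0.24, and Slc7a11, the cystine importer, by 0.72. Against SD, MET+LEU had 3 that rose (Gclc, Gss and Sod2) and 1, Hmox1, fell by 0.19, with a median of -0.006. That count of 4 was 2 (Sod2 and Hmox1) without any single library among 2% HS replicates 1 to 4, SD replicate 4, MET replicate 5, LEU replicates 2 to 5 and MET+LEU replicate 6.

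Of 10 genes of the glucocorticoid response, 9 were tested, and in SD vs. 2% HS 2 rose and 3 fell (median 0.06). Klf9, a transcription factor induced by glucocorticoids, fell by 1.08 (SE 0.06, adjusted p = 7.3e-20), from 91.9 ± 6.55 to 43.6 ± 2.86 CPM. Pdk4, a kinase that restrains pyruvate oxidation, fell by 0.49 and Tsc22d3 also fell, whereas Hsd11b1, which regenerates active glucocorticoid, rose by 0.97 (SE 0.07, adjusted p = 7.4e-17) and Sgk1 also rose. When MET+LEU was set against SD, 3 rose (Hsd11b1 by 0.32, Klf9 by 0.19 and Nr3c1, the receptor) and 2 fell (Per1 and Dusp1), with a median of 0.01. The count of 5 was 3 without SD replicate 1, SD replicate 3 or MET+LEU replicate 2, and Klf9 was not among those 3. The counts of these lists stand beside 27.8% of all genes with SD alone against serum, 13.9% in each direction. With the combination against SD, 18.4% of all genes passed, 10.6% higher and 7.8% lower.

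The log2 CPM of each member was compared over the 30 libraries with that of 12693 genes, the members not among them. Most like Mt1 ran Usp53 (Pearson's r 0.925), Rbms1 (0.916) and Naca (0.913), and Mt2 (0.910) would take rank 4. Most like Mt2 ran Cpne2 (0.918), Gpx3 (0.915) and Peg3 (0.909), and Mt1 would take rank 3. For Mtf1 the highest r was 0.634 (Lpar3), for Slc30a1 0.721 (Acvr1) and for Slc39a10 0.761 (Tnpo1). After the group means were removed, r with Mt1 was 0.658 for Usp53, 0.652 for Rbms1 and 0.754 for Naca. That with Mt2 was 0.702 for Cpne2, 0.589 for Gpx3 and 0.389 for Peg3. The values for Lpar3, Acvr1 and Tnpo1 were 0.562, 0.577 and 0.816. Slc30a1 ran against the metallothioneins, with r of -0.535 with Mt1 and -0.629 with Mt2, and of -0.067 and -0.248 after the group means were removed. The points share libraries, depth and the group differences.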

How the data were processed

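Total RNA of C2C12 myotubes was sequenced after ribosomal RNA depletion (30 libraries, 5 groups of 6). The authors deposited a table of raw read counts per gene, not normalized. The submitters' processing notes name cutadapt 1.16, STAR 2.7.6a, featureCounts 1.6.3, DESeq2 1.30.1 and the build GRCm38. The annotation release, the strand setting and the handling of shared reads are not given in the sources used here. GENCODE M21 (GRCm38) named 55227 of the 55487 gene IDs, and the others held 0.00434% of counts.

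From these deposited counts, genes were kept by filterByExpr (at least 10 counts at the median depth in 6 libraries and 15 in total), leaving 15907. All 30 libraries were fitted in edgeR 4.0.16 (R 4.3.3) with TMM scaling and the robust quasi-likelihood F test, without a replicate block, and p-values were adjusted by the Benjamini-Hochberg method over all genes tested, with a threshold of 0.05. SE and 95% intervals come from that fit, whose biological coefficient of variation was 0.0709. Depth was 12784960 to 19604103 counts per library; 3 counts, the floor for a count of 0, are 0.152 to 0.243 CPM and cover counting error only. No 2 libraries held identical values.

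The alternatives were DESeq2 1.42.0 (size factors, and its Wald test), upper-quartile scaling, limma-voom (limma 3.58.1) with sample weights, 2 other filters, a GC-content offset, a fit of the compared groups alone, a replicate block and leaving out each library. The script was tested on simulated data. Named genes are the 5 members, listed genes past the threshold in SD vs. 2% HS or MET+LEU vs. SD, a few others of each list, and the 3 genes most correlated with each member. The members and lists were chosen with earlier results of these data known. The alternatives for the lists were added after seeing the data. Motifs were counted in RefSeq promoters (GRCm38.p6). Metallothionein protein sequences were not used here.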

Additional observations from a re-analysis of the deposited data

Results flagged for a closer look

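In 25 sets of 6 values (5 genes in 5 groups), 2 held a library whose gap to its nearest neighbour was a larger share of the group's range than Dixon's 95% critical value, and chance gives about 1 in 20. Slc30a1 in MET+LEU replicate 3 was the lowest of its group at 13.7 CPM, with a gap of 0.702 of the range. Slc39a10 in 2% HS replicate 4 was the lowest of its group at 16.1 CPM, with a gap of 0.632 of the range.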

How the results depend on the processing

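Of 270 log2 fold changes of the 5 members refitted in 9 alternatives, 257 kept direction and side of the threshold, 3 no longer passed, 2 newly passed and 8 changed sign. In MET+LEU vs. SD the number of members past the threshold was 0 instead of 1 with genes of more than 5 counts in total (Mt2, adjusted p = 0.0555), 2 with the GC-content offset (Mt1 also, adjusted p = 0.0485), and 0 to 1 without single libraries. Slc30a1 in SD vs. 2% HS was lost with genes of more than 5 counts in total (adjusted p = 0.0550) and with only the groups compared (adjusted p = 0.0535). Values near 0 that changed sign were the interaction for Mt1 (-0.04 with limma-voom) and for Slc39a10 (0.006 by edgeR; -0.0057 with DESeq2 size factors, -0.014 with upper-quartile scaling, -0.0073 with DESeq2, -0.0057 with limma-voom, -0.0075 with genes of more than 5 counts, -0.026 with the GC-content offset and -0.0060 with only the groups compared). The cause was not tested.

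Without single libraries, 842 of 900 fold changes kept direction and side, 11 no longer passed, 2 newly passed and 45 changed sign. The ranges that crossed 0 were -0.00071 to 0.090 for Mt1 in MET vs. SD, -0.044 to 0.076 for its interaction, -0.042 to 0.050 for Mt2 in MET vs. SD, -0.018 to 0.074 for its interaction, and -0.055 to 0.0044 for Mtf1 in LEU vs. SD. For Slc39a10 they were -0.064 to 0.036 in MET vs. SD, -0.065 to 0.036 in LEU vs. SD, -0.088 to 0.013 in MET+LEU vs. SD and -0.059 to 0.041 for the interaction.

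In MET+LEU vs. SD, the count of zinc importers past the threshold was 1 with limma-voom, 2 with genes of more than 5 counts, 0 with only the groups compared and 2 to 5 without single libraries. That of copper handling genes was 3 with limma-voom and 3 with only the groups compared. That of glutathione and thioredoxin genes was 1 with only the groups compared and 2 to 5 without single libraries. That of glucocorticoid response genes was 2 with limma-voom, 3 with the GC-content offset, 3 with only the groups compared and 3 to 6 without single libraries. The count of zinc exporters in SD vs. 2% HS was 1 to 2 without single libraries (2 without SD replicate 2).

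Libraries with the same replicate number deviated together weakly at most (60 pairs, mean r 0.024, range -0.18 to 0.35, 12 over 0.1). The mean r was -0.0048 for different numbers, and 9 of 30 libraries correlated best with their own number. These values cannot tell whether the numbers pair the libraries. With the replicate block, the log2 fold change of Mt2 from SD to MET+LEU was 0.26 (adjusted p = 0.0183), and the block changed no call of the members.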
